A study of Mus musculus with 22 samples.

Results

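The comparison set 4 libraries of transplanted Vav knockout mice against 3 libraries of Vav control mice, all at 8 weeks of age. These 7 of the 22 libraries of the series are the ones that its 8-week expression table labels as transplanted and as control. Each library held RNA of sorted CD45.1+ CD4+CD8+ thymocytes from mouse thymus. The control mice were E2aF/F, which means that both E2a alleles carried loxP sites and that no Cre was named. The transplanted mice were VavCre E2aF/F, so they carried the same floxed alleles and a Cre recombinase driven from Vav, which is active across the blood lineages. They had received sublethal irradiation and wild-type bone marrow cells as competitors, and their thymocytes were taken 4 weeks later. The control mice were neither irradiated nor transplanted, so the knockout cannot be told apart from the irradiation and the transplant in this comparison. The 3 untransplanted VavCre E2aF/F libraries of the same age are set beside it where that helps. The labels do not say which cells of the transplanted mice carried CD45.1, nor whether each library came from its own animal, so p-values measure the spread between libraries.

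E2a, whose gene symbol is Tcf3, encodes E proteins, basic helix-loop-helix transcription factors that bind the E-box motif and direct B and T cell development. Id proteins lack the DNA-binding part and hold E proteins off DNA. In the thymus, E proteins act together with Notch signalling at the early steps, support rearrangement of the T cell receptor genes, and restrain division until the pre-T cell receptor signals. CD4+CD8+ cells are the double-positive stage, at which the receptor alpha chain is rearranged and cells are selected. Mice without E2a are known to develop T cell lymphoma, in which activating changes of Notch1 and high Myc are common.

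Expression was deposited as FPKM, fragments per kilobase of gene per unit of library depth. Differences are given as log2(FPKM + 1), a scale that understates changes of low genes. Genes at 1 FPKM or more in at least 3 of the 7 libraries entered the test, which left 11193 genes. A gene is called where limma's adjusted p (Benjamini-Hochberg over all genes tested) was under 0.05. An exact test on the ranks of 4 against 3 libraries has 35 arrangements and cannot give a two-sided p under 0.0571. Single genes therefore rest on the limma fit.

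Depth inferred from the low values was 13600000 to 20400000 reads in the transplanted libraries and 10800000 to 21100000 in the controls. Transplanted replicate 3 stood apart from the other 3. Over the genes tested its log2 values correlated with those of transplanted replicates 1, 2 and 4 at 0.824, 0.820 and 0.866, below the 0.903 to 0.916 among those 3 and below its own 0.877 to 0.879 with the controls. It also held the highest summed FPKM of 17 macrophage and granulocyte markers, 29.8 against 4.73 to 8.33 in the other transplanted libraries and 2.75 to 6.86 in the controls. A list of 10 lung epithelium genes, chosen after their values were seen, summed to 108 FPKM there, to 13.4, 16.1 and 2.30 in transplanted replicates 1, 2 and 4, and to 1.35 to 1.74 in the controls. In the untransplanted knockouts it was 1.66, 44.9 and 43.0 FPKM. The part of these transcripts in the results was not tested. Of the macrophage genes in that library, Lyz2 was at 16.1, Cd68 at 6.25 and Itgam at 3.29 FPKM, each the highest of the 7 libraries, while the defining genes Csf1r and Adgre1 were at 0.252 and 0 FPKM. Csf1r was at most 0.0298 in the other 6. By Xist and Y-linked genes, transplanted replicates 1 and 2 and all 3 controls were female and transplanted replicates 3 and 4 were male. Results that rest on replicate 3 are given with and without it.

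Double-positive identity was checked by its defining markers. Cd4 was 96.8, 183, 389 and 152 FPKM in transplanted replicates 1 to 4 and 410 to 460 FPKM in the controls, and Cd8a was 157 to 393 against 471 to 533 FPKM. Both co-receptors were therefore present in every library, below every control. The B cell factor Pax5 was at 0 and Ms4a1 at 0 to 0.00589 FPKM in the transplanted libraries, and of 20 early progenitor genes, 18 were at most 0.815 FPKM in any transplanted library. Kit, a receptor of early progenitors, was at 12.1 FPKM in transplanted replicate 2 and 2.56 in replicate 4, against at most 0.0619 in replicates 1 and 3 and 0.0872 in the controls. Mpzl2, an adhesion protein on the same list, was at 13.7 FPKM in replicate 2 and 3.86 in replicate 4, against 0.395 and 1.27 in the other replicates and 0.153 to 0.653 in the controls. In bulk RNA, fewer cells of a type and less RNA per cell cannot be told apart.

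Tcf3, the targeted gene (ENSMUSG00000020167, mm10 chromosome 10, 80409514 to 80433647), was at 1.22, 1.31, 2.32 and 1.21 FPKM in transplanted replicates 1 to 4 and at 7.59, 7.52 and 7.49 FPKM in the controls. The groups did not overlap, and the highest transplanted value was that of replicate 3. The difference was -1.79 on the log2 scale (SE 0.177, limma adjusted p = 0.00262). Without 1 control the call was lost (limma adjusted p from 0.0562 to 0.0586), at a difference of -1.93 to -1.73 over all fits without 1 library. Of the 7 listed E proteins and Id inhibitors, 5 passed the filter and Tcf3 alone was called. Tcf12, the E protein HEB, was at 14.7 to 17.1 FPKM against 13.3 to 16.4 in the controls, with overlapping groups. Id2 ranged from 2.37 FPKM in replicate 2 to 24.2 in replicate 1, against 3.85 to 7.12 in the controls.

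Of the 11193 genes, 273 rose and 279 fell, together 4.93% of those tested (2.44% higher and 2.49% lower). The rise or fall was 1 log2 unit or more in 186 and 204 of them, and the median size over called genes was 1.33. At an unadjusted p under 0.05 there were 2447 genes (21.9%). The median difference over all genes was -0.02. At 24.5% of the genes all transplanted libraries lay on 1 side of all controls (11.2% higher, 13.3% lower in every transplanted library). Without transplanted replicate 3 the counts were 1727 higher (15.8%) and 1408 lower (12.9%) of 10942 genes, and all 542 of the earlier calls tested there were called again. Without control replicate 1, 2 or 3 the counts fell to 10, 9 and 13 higher and 10, 10 and 12 lower. Of the 43 called genes that the naming rules chose, 38 could be tested without each control, and 7 of these (Sdc1, Igf2bp3, Myo1e, Cyth4, Celsr1, Dhrs3 and Arap2) were called each time. Sdc1, Igf2bp3 and Myo1e were under 1 FPKM in every control and passed the filter through the transplanted libraries alone. The same held for Ly6c1, Nr1h5, Ptpn13, Fbln1, Kcnf1, Cdkn2a and H2-Ab1. The 5 genes that passed through the controls alone had no such fit, so these counts are uneven between rises and falls.

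**Figure D1:**
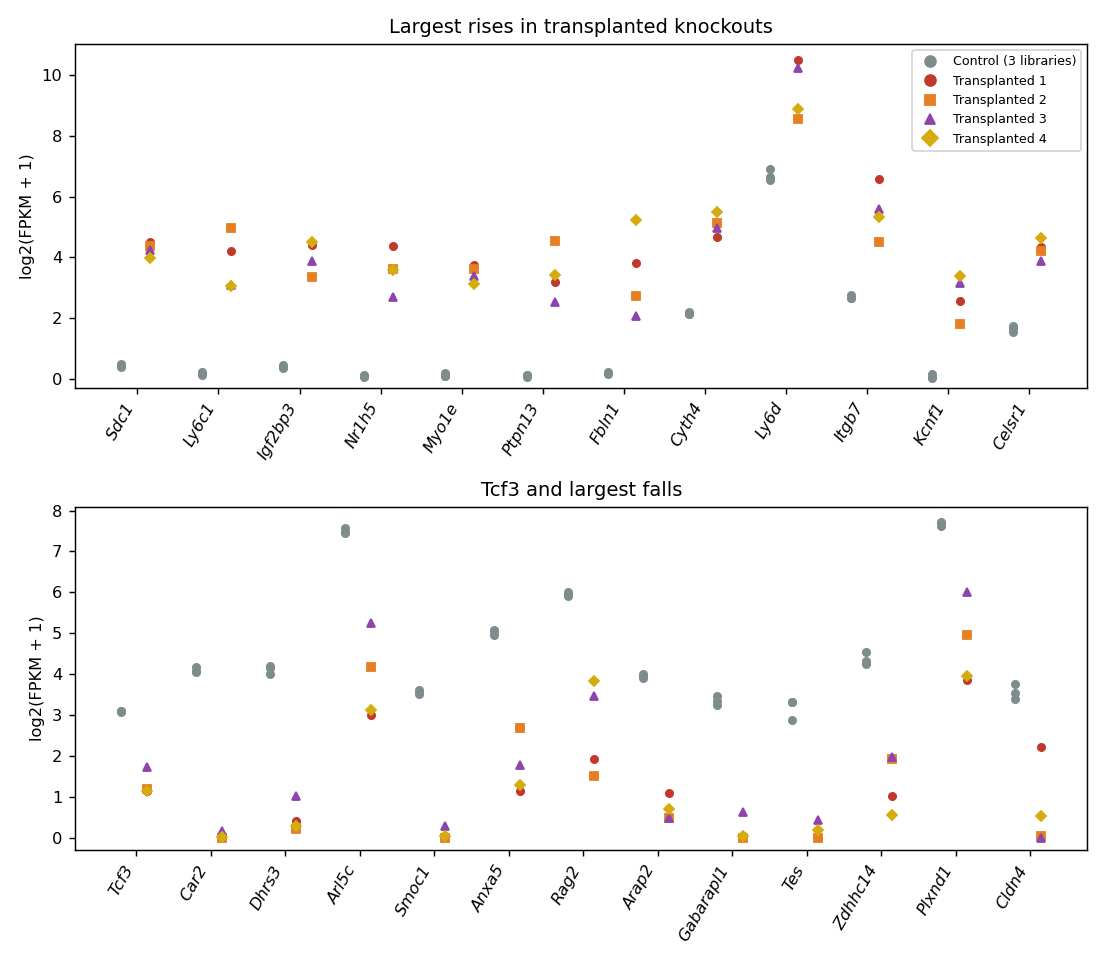
Expression in log2(FPKM + 1) of the 12 largest rises (top), and of Tcf3 with the 12 largest falls (bottom), by gene. Grey circles are the 3 control libraries and coloured symbols the 4 transplanted libraries. No transplanted symbol reaches the grey circles of its gene, and the spread among coloured symbols differs between genes, from 0.07 (SD) for Car2 to 1.38 for Fbln1.

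Among the 12 largest rises, surface and adhesion proteins stood beside nuclear and RNA-binding ones. Sdc1, the heparan sulphate proteoglycan syndecan-1 (chromosome 12, 8771323 to 8793715), was at 21.6, 19.8, 17.8 and 14.7 FPKM in transplanted replicates 1 to 4 and at 0.398, 0.366 and 0.305 in the controls. All 4 transplanted libraries were close together and far above the controls (log2 3.83, SE 0.152, limma adjusted p = 6.75e-05). Ly6c1, a GPI-anchored surface protein of the Ly6 family (chromosome 15, 75044018 to 75048830), was at 17.6, 30.2, 7.52 and 7.28 FPKM against 0.0787 to 0.170. It rose by 3.66 (SE 0.468, limma adjusted p = 0.00766), with a lower pair of libraries, replicates 3 and 4. Its value is uncertain in part because Ly6c2 is a near-identical copy. Igf2bp3, an RNA-binding protein of foetal tissues, was at 20.4, 9.17, 13.8 and 21.8 FPKM against 0.276 to 0.380 (log2 3.64, SE 0.284, limma adjusted p = 0.000992). Without 1 control the call of Ly6c1 was lost (0.0798 to 0.0968).

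Nr1h5, a nuclear receptor related to the bile acid receptor, was at 19.7, 11.1, 5.42 and 10.9 FPKM against 0.0325 to 0.0804, a rise of 3.47 that was smallest in replicate 3. Myo1e, a class I myosin of the membrane cytoskeleton, was at 12.4, 11.1, 9.31 and 7.65 FPKM against 0.0576 to 0.131 (log2 3.34). The phosphatase gene Ptpn13 rose by 3.32, from 0.0275 to 0.0859 FPKM in the controls to 4.70 to 22.2. These 3 genes were near the floor in every control. Fbln1, the extracellular matrix protein fibulin-1, varied most of the 12, at 13.1, 5.56, 3.16 and 36.2 FPKM against 0.102 to 0.165 (log2 3.27, limma adjusted p = 0.0433). Its call was lost without replicate 1 or replicate 2 (limma adjusted p = 0.0964 at most over the fits without 1 transplanted library, 0.00821 at least). Kcnf1, a potassium channel subunit, rose by 2.64 and was likewise near the floor in the controls (0.0238 to 0.116 against 2.46 to 9.54 FPKM). Without 1 control the calls of Nr1h5, Ptpn13, Fbln1 and Kcnf1 were lost (0.0548 to 0.217).

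Other rises started from a clear control level. Ly6d, another Ly6 family surface protein, was at 1452, 377, 1204 and 474 FPKM in transplanted replicates 1 to 4 and at 92.3, 99.0 and 118 in the controls (log2 2.85, limma adjusted p = 0.0245). Replicates 1 and 3 were well above replicates 2 and 4, and these were above every control. Cyth4, an exchange factor for Arf GTPases, was at 24.4, 33.7, 29.9 and 44.4 FPKM against 3.34 to 3.53 (log2 2.92, limma adjusted p = 0.000577). Itgb7, the beta chain of gut-homing integrins, was at 94.4, 21.9, 46.8 and 38.8 FPKM against 5.27 to 5.71 (log2 2.81). Celsr1, an atypical cadherin of planar cell polarity, was at 19.4, 17.6, 13.7 and 23.7 FPKM against 1.92 to 2.31 (log2 2.62). In all 4 of these genes every transplanted library was above every control. Without 1 control the calls of Ly6d and Itgb7 were lost (0.126 to 0.177). Of the 12 largest rises, 6 lie on chromosome 15 (Ly6c1, Fbln1, Cyth4, Ly6d, Itgb7 and Celsr1), and none of the 12 largest falls does.

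The largest fall was Car2, a carbonic anhydrase (ENSMUSG00000027562, chromosome 3, 14886273 to 14900770). It was at 0.0225, 0, 0.121 and 0.0190 FPKM in transplanted replicates 1 to 4 and at 16.0, 15.7 and 17.2 in the controls (log2 -4.06, SE 0.123, limma adjusted p = 3.68e-05). Dhrs3, which reduces retinal to retinol, was at 0.337, 0.166, 1.04 and 0.229 FPKM against 15.2 to 17.3 (log2 -3.63, SE 0.215, limma adjusted p = 0.000333). Both genes were nearly silent in each transplanted library, with replicate 3 the highest. Smoc1, a secreted calcium-binding protein, Gabarapl1, an autophagy protein of the ATG8 family, and Tes, a LIM protein of focal adhesions, fell in the same manner. Smoc1 was at 0 to 0.228 FPKM against 10.5 to 11.2, Gabarapl1 at 0 to 0.556 against 10, 8.47 and 9.14, and Tes at 0 to 0.358 against 6.36 to 9.08. In each of these 3 the highest transplanted value was again that of replicate 3. Car2, Smoc1, Gabarapl1 and Tes did not pass the filter without a control, because only the controls reached 1 FPKM.

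Other falls left more transcript and more spread. Arl5c, an Arf-like small GTPase, was at 6.98, 17.2, 37.3 and 7.75 FPKM against 173 to 188 (log2 -3.60, limma adjusted p = 0.0123). Anxa5, the phosphatidylserine-binding annexin A5, was at 1.24, 5.40, 2.45 and 1.47 FPKM against 30.2 to 32.7 (log2 -3.30, limma adjusted p = 0.00342). Plxnd1, a semaphorin receptor of double-positive thymocytes, was at 13.6, 30.0, 63.7 and 14.5 FPKM against 197 to 209 (log2 -2.98, limma adjusted p = 0.0214). In Arl5c and Plxnd1 replicate 3 was the closest to the controls, and no library overlapped them. Arap2, an Arf GTPase-activating protein, was at 0.397 to 1.16 FPKM against 14.1 to 15.2. Zdhhc14, a palmitoyltransferase, was at 0.477 to 2.93 FPKM against 18.2 to 22.3. Cldn4, a claudin, was at 3.69, 0.0282, 0 and 0.445 FPKM against 9.57 to 12.6, with replicate 1 the closest to the controls. The call of Cldn4 was lost without replicate 2 or replicate 4 (limma adjusted p from 0.00119 to 0.0676 over the fits without 1 transplanted library). Without 1 control the calls of Arl5c, Anxa5, Plxnd1, Zdhhc14 and Cldn4 were lost (0.0566 to 0.182).

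The promoters of the 2 largest rises and 2 largest falls that had a usable RefSeq entry are shown because E proteins bind E-boxes and these genes moved in all 4 libraries. Each is the stretch before the RefSeq start site (GRCm38.p6, up to 250 bases, ending before the annotated gene), 5′ to 3′ on the gene's strand. Capitals mark an E-box, searched as CAGCTG, as CACCTG and as CAGGTG; the first reads the same on both strands and the others are each other's reverse complement. Sdc1 and Ly6c1 rose, Dhrs3 and Anxa5 fell.
Sdc1, chr12:8771146-8771322, plus strand: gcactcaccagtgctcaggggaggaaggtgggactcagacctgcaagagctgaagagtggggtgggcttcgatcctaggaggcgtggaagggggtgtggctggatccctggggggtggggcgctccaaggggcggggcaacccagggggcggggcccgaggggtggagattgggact
Ly6c1, chr15:75048838-75049087, minus strand: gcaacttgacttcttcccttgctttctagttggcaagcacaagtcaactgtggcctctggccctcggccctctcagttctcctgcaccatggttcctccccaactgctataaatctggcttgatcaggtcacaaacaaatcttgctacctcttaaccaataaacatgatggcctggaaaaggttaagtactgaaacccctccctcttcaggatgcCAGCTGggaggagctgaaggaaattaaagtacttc
Dhrs3, chr4:144892577-144892826, plus strand: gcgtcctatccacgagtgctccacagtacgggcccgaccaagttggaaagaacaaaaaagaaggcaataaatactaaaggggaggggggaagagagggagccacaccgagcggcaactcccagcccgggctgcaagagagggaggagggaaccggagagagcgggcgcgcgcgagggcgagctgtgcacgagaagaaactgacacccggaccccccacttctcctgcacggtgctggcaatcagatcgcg
Anxa5, chr3:36475895-36476137, minus strand: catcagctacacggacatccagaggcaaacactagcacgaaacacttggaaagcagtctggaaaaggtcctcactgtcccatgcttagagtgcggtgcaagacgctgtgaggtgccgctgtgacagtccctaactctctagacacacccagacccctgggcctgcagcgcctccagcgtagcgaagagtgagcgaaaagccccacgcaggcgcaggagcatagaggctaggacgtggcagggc
Ly6c1 held 1 match, CAGCTG, at position -35 from the start site, and the other 3 stretches held 0. Of 27025 first-listed promoters of 250 bases, 27.4% held at least 1 of the 3 motifs. A match is a description of letters, not of binding. A share over all called genes is not given, because 63.0% of the called higher and 59.5% of the called lower genes had an entry.

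The same genes in the untransplanted Vav knockouts are given side by side, since both comparisons share the 3 controls. Sdc1 was at 13.2 to 13.4 FPKM there, Igf2bp3 at 15.9 to 19.7 and Cyth4 at 30.4 to 37.9. Ly6c1 was at 39.6 to 74.8 FPKM, above its 4 transplanted values. Car2 was at 0 to 0.245 FPKM and Rag2 at 4.53 to 5.93. In a fit of the 10 libraries, 541 genes rose (4.65%) and 518 fell (4.45%) in the untransplanted knockouts against the controls, of 11632 genes tested.

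Transplanted and untransplanted knockouts were tested against each other in that fit. All 3 untransplanted libraries were male by the same genes. limma called 0 of 11632 genes, and 681 (5.85%) had an unadjusted p under 0.05. The 4 transplanted libraries varied widely, so this count does not show that the groups are alike. Without transplanted replicate 2 the counts were 2 higher and 3 lower. The genes of smallest p, none of which passed, were Hist1h1c, a linker histone, at 0.755 to 2.85 FPKM in the transplanted and 8.21 to 11.6 in the untransplanted libraries, and Tnfsf14, the cytokine LIGHT, at 3.46 to 4.53 against 0.749 to 1.92. Fos, an immediate early factor, was at 0.789, 0.0818, 0.236 and 2.95 FPKM in transplanted replicates 1 to 4 and at 9.77, 8.78 and 16.4 in the untransplanted libraries (log2 -2.80, SE 0.415, limma adjusted p = 0.212). The controls were at 0.169 to 0.554 FPKM, among the transplanted values. Evc, a ciliary protein, was at 2.90 to 6.88 FPKM in the transplanted, 0.189 to 1.304 in the untransplanted and at most 0.0111 in the control libraries.

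Spread was the second property of the transplanted libraries. The median SD of log2(FPKM + 1) over the genes tested was 0.355 among the 4 transplanted libraries, 0.0957 among the 3 controls and 0.141 among the 3 untransplanted knockouts. The transplanted SD was above the control SD at 92.1% of genes, and the ratio of the medians was 3.71. Without replicate 3 the transplanted median was 0.231, which is still the largest of the 3 groups. An SD of 1 or more was found at 742 genes (6.63%) among the transplanted, 73 (0.652%) among the controls and 187 (1.67%) among the untransplanted libraries. limma fits 1 spread for both groups. Of the genes that were not called, 671 had a mean difference of 1 log2 unit or more, with a median transplanted SD of 0.921.

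Of the genes at least 1 log2 unit beyond every control, most were so in a single transplanted library. At least 1 log2 unit above every control were 824 genes in exactly 1 transplanted library, 327 in 2, 232 in 3 and 78 in all 4. Below every control by as much were 787, 307, 198 and 126 genes. As shares of the genes tested, 13.1% were above in at least 1 library, 5.69% in at least 2, 2.77% in at least 3 and 0.697% in all 4. Below every control the shares were 12.7%, 5.64%, 2.89% and 1.13%. Of the 78 genes above in all 4, 72 were called, and of the 126 below in all 4, 122. At 100 genes 1 transplanted library was above and another below every control by 1 log2 unit or more. Without a minimum size, 24.5% of the genes had all 4 transplanted libraries on 1 side of the controls.

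**Figure D2:**
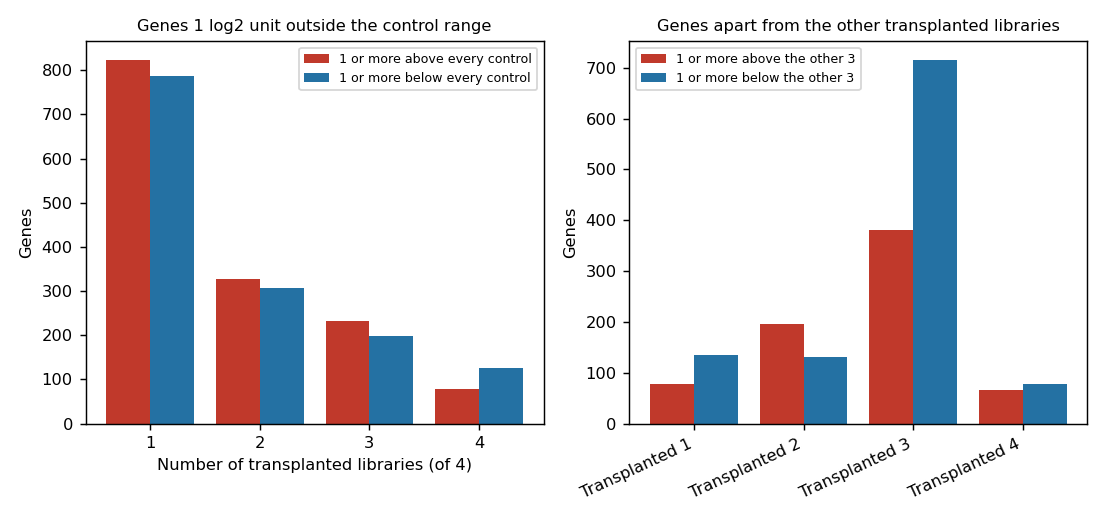
Left, number of genes (y axis) at least 1 log2 unit above (red) or below (blue) every control, by the exact number of transplanted libraries in which they were. Right, number of genes in which the named transplanted library was at least 1 log2 unit above or below each of the other 3 transplanted libraries. The left bars drop from 824 and 787 genes in 1 library to 78 and 126 in all 4, and the right bars are tallest for replicate 3, with 381 above and 716 below.

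Distance from the controls and distance from each other ranked the libraries differently. The number of genes at least 1 log2 unit above every control was 850 in replicate 1, 717 in replicate 2, 471 in replicate 3 and 448 in replicate 4, and the number below was 776, 594, 616 and 513. The untransplanted libraries had 456 to 561 above and 471 to 536 below. A control set against the other 2 had 28 to 48 and 32 to 53. Set against the other 3 transplanted libraries, replicate 3 was apart by 1 log2 unit at 1097 genes, replicate 2 at 326, replicate 1 at 211 and replicate 4 at 144. Replicate 1 was thus the farthest from the controls, and replicate 3 the farthest from its own group.

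**Figure D3:**
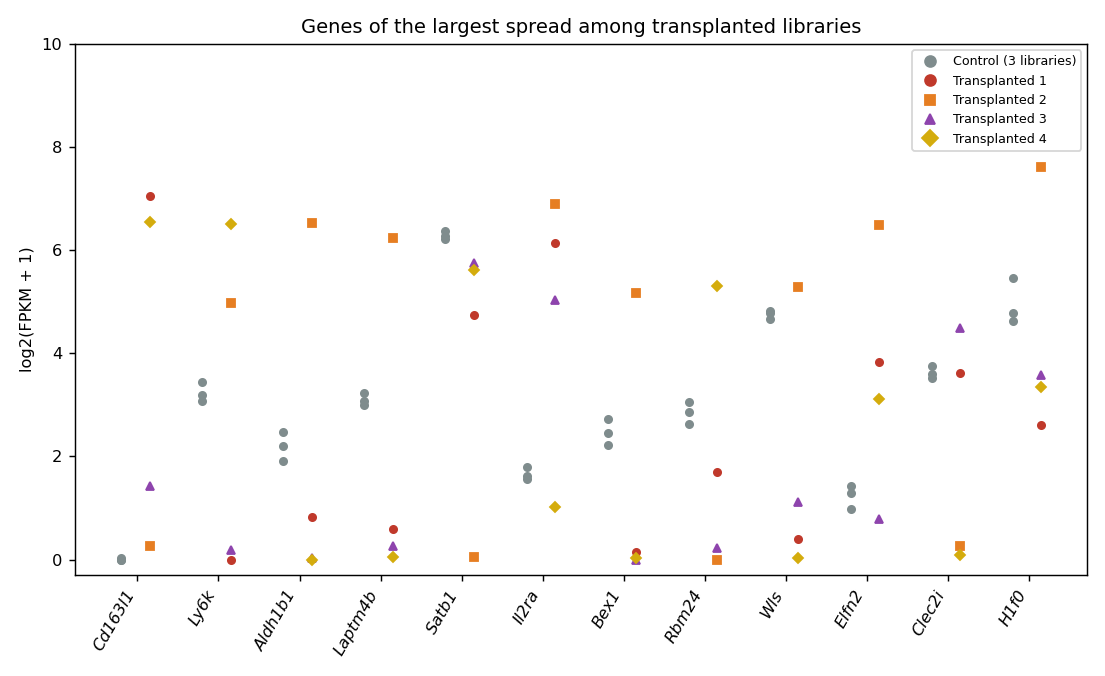
Expression in log2(FPKM + 1) of the 12 protein-coding genes with the largest SD among the transplanted libraries and a control SD under 0.5. Grey circles are the 3 controls and coloured symbols the transplanted libraries. For Aldh1b1, Laptm4b and Bex1 replicate 2 is alone above the controls while the other 3 are below them.

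Of the 12 genes of largest spread, many were high in some transplanted libraries and near 0 in others. They were chosen by that spread, so their values are a description. Cd163l1, a scavenger receptor of gamma-delta T cells, was at 132 and 92.0 FPKM in replicates 1 and 4, at 0.192 and 1.68 in replicates 2 and 3, and at 0 to 0.0275 in the controls (SD 3.48 on the log2 scale). Ly6k, a Ly6 family protein, was at 30.5 and 89.7 FPKM in replicates 2 and 4, at 0 and 0.140 in replicates 1 and 3, and at 7.44 to 9.82 in the controls. Its libraries thus lay on both sides of the control range. Il2ra, the interleukin 2 receptor alpha chain that marks the stage before double-positive cells, was at 69.6, 118 and 31.7 FPKM in replicates 1 to 3, at 1.02 in replicate 4 and at 1.96 to 2.47 in the controls.

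Transplanted replicate 2 was the odd one in most of this set. Satb1, a chromatin organiser that double-positive cells express strongly, was at 0.0342 FPKM there, at 25.7, 52.8 and 48.4 in replicates 1, 3 and 4, and at 72.9 to 82.3 in the controls. Aldh1b1, an aldehyde dehydrogenase, was at 90.8 FPKM in replicate 2 and at most 0.775 in the others, against 2.78 to 4.58 in the controls. Laptm4b, a lysosomal membrane protein, was at 74.6 FPKM against at most 0.502, with controls at 7.003 to 8.407. Bex1 was at 35.2 FPKM against at most 0.104, with controls at 3.66 to 5.64. Each of these 3 genes was above the controls in replicate 2 and below them in the other 3 libraries. H1f0, a linker histone, was at 195 FPKM in replicate 2 and 5.07 to 10.9 in the others, against 23.8 to 43.0. Elfn2 was at 89.1 FPKM in replicate 2 and 0.719 to 13.2 in the others, against 0.971 to 1.69.

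The remaining members of this set also split the libraries. Wls, which carries Wnt ligands to the cell surface, was at 37.9 FPKM in replicate 2, at 0.311, 1.16 and 0.0187 in replicates 1, 3 and 4, and at 24.5 to 27.2 in the controls. Rbm24, an RNA-binding protein, was at 38.7 FPKM in replicate 4 and at most 2.24 in the others, against 5.19 to 7.36. Clec2i, a C-type lectin, was at 11.3 and 21.6 FPKM in replicates 1 and 3 and at 0.195 and 0.0609 in replicates 2 and 4, against 10.5 to 12.5. The high libraries were thus replicates 1 and 4 for Cd163l1, 2 and 4 for Ly6k, and 1 and 3 for Clec2i. Some of these genes also varied among the untransplanted knockouts, where Ly6k was at 28.4, 65.9 and 0.0757 FPKM and Laptm4b at 0.248, 27.4 and 0.532.

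The filter of 3 libraries leaves out genes that only 1 or 2 transplanted libraries express. There were 93 genes under 1 FPKM in every control and at 5 FPKM or more in exactly 1 transplanted library, and 11 in 2. These 2 counts are over all gene types. The next counts keep only protein-coding genes without predicted or accession-like names that were also under 1 FPKM in the other 3 transplanted libraries. They were 2 in replicate 1, 17 in replicate 2, 1 in replicate 3 and 9 in replicate 4. In replicate 2 the highest were Amph, the endocytic protein amphiphysin, at 59.0 FPKM, the orphan receptor Gpr82 at 26.0 and the myosin Myo16 at 13.4. In replicate 1 Igfbp4, which binds insulin-like growth factors, was at 10.02 FPKM. Replicate 4 had Vmn2r96 at 11.4 FPKM, Vgll1 at 9.37 and the stress gene Gadd45g at 7.39. These genes got no test.

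The gene lists give the same values by function. For each list the number of members called higher and lower is read against 2.44% and 2.49% of all genes tested, and its median against -0.02. Replicate 3 was singled out because it stood apart in these same data, so list counts without it are a description. The plot of list medians gives every list with at least 5 members tested.

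**Figure D4:**
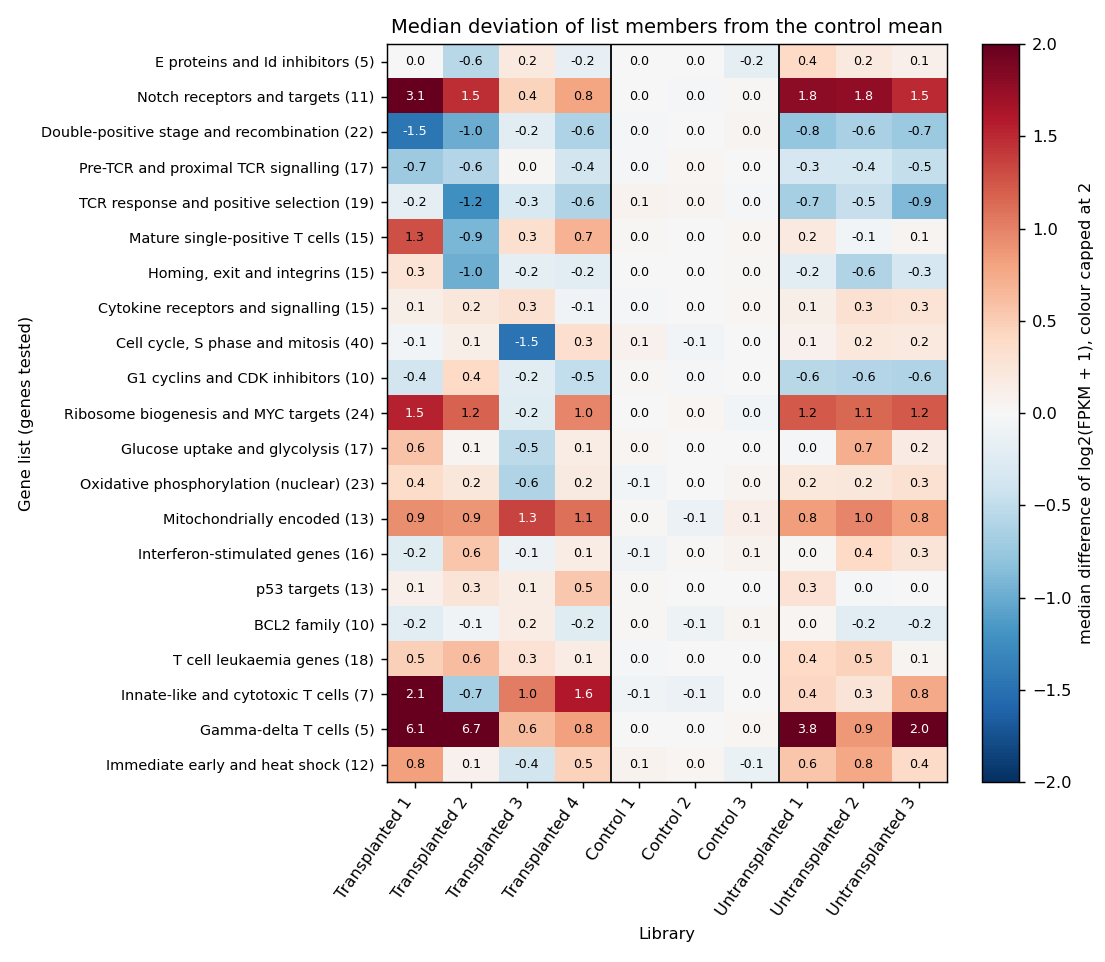
Median over list members of the difference of log2(FPKM + 1) from the control mean, by gene list (rows, number of genes tested in brackets) and library (columns). Red is above and blue below the controls, with the colour capped at 2. Ribosome biogenesis is at 1.5, 1.2, -0.2 and 1.0 in the transplanted libraries, and the cell cycle list is at -1.5 in replicate 3 alone.

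Notch1 and Notch3 rose, while the Notch target genes varied between the transplanted libraries. Of 14 listed genes, 11 passed the filter, 2 rose and 0 fell, with a median of 1.94. Notch1 was at 101.3, 44.5, 64.3 and 43.6 FPKM in transplanted replicates 1 to 4 and at 9.97, 10.7 and 11.6 in the controls (log2 2.37, SE 0.295, limma adjusted p = 0.00681). Notch3 was at 21.96, 19.7, 51.3 and 42.9 FPKM against 4.989 to 7.495 (log2 2.21, SE 0.356, limma adjusted p = 0.0178). No transplanted library was near the controls for either receptor. The calls of both were lost in the fits without 1 control (limma adjusted p of 0.0774 to 0.0954 for Notch1 and 0.116 to 0.160 for Notch3), with log2 differences that moved little.

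Among the targets, Dtx1, the ubiquitin ligase Deltex1, was at 65.2, 3.14, 17.3 and 20.4 FPKM against 0.403 to 0.590 (log2 3.60, limma adjusted p = 0.0524). Hes1, a repressor that Notch induces, was at 10.3, 1.80, 0.172 and 3.48 FPKM against 0 to 0.0199, and Heyl at 9.38, 1.97, 3.84 and 0.816 against 0.0333 to 0.0857. These 3 genes were above every control in all 4 libraries, highest in replicate 1, and did not pass the test. Ptcra, which pairs with the beta chain in the pre-T cell receptor, was at 24.0 FPKM in replicate 1 and 2.70 to 5.51 in the others, against 12.1 to 14.2. The list's median difference from the controls was 3.13 in replicate 1, 1.48 in replicate 2, 0.44 in replicate 3 and 0.78 in replicate 4. Without replicate 3, 5 of 10 members tested were called higher and 0 lower, where 15.8% and 12.9% of all genes were. The untransplanted knockouts had list medians of 1.790, 1.770 and 1.496.

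Myc, the growth regulator on chromosome 15, was at 23.0, 21.3, 1.47 and 9.35 FPKM in transplanted replicates 1 to 4 and at 0.945, 0.734 and 0.787 in the controls. It was above the controls in all 4 libraries and lowest in replicate 3, and did not pass the test (log2 2.57, SE 0.755, limma adjusted p = 0.106). It was singled out after its values were seen, as were Dtx1 and Hes1. The 24 ribosome biogenesis and Myc target genes followed the same order of libraries, with medians of 1.54, 1.18, -0.25 and 0.98 in replicates 1 to 4, and limma called 0 of 24 (8 at an unadjusted p under 0.05). Npm1, nucleophosmin, was at 233, 149, 46.1 and 146 FPKM against 50.2 to 62.3. Srm, the spermidine synthase, was at 37.1, 26.9, 2.24 and 22.6 FPKM against 3.71 to 4.75. Both were above the controls in 3 libraries and below them in replicate 3. Without replicate 3, 22 of the 24 were called higher, where 15.8% of all genes tested were. That fit leaves out the library in which this list was lowest, which favours such a count.

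Division genes as a list were below the controls in replicate 3. Of 40 genes of S phase and mitosis, all 40 passed the filter and limma called 0 (2 at an unadjusted p under 0.05), with list medians of -0.05, 0.12, -1.48 and 0.33 in replicates 1 to 4. Mki67, a marker of dividing cells, was at 66.3, 76.9, 25.6 and 109 FPKM against 110 to 128. Mcm2, a replication licensing factor, was at 158, 122, 37.2 and 113 FPKM against 71.5 to 77.9. Ccna2, cyclin A2, was at 20.6, 24.1, 3.64 and 25.2 FPKM against 29.4 to 35.2. So replicate 3 was the lowest of the 7 libraries for each, while replicates 1, 2 and 4 were above the controls for Mcm2 and below them for Mki67 and Ccna2. Without replicate 3, 17 of the 40 were called higher and 4 lower, where the shares of all genes were 15.8% and 12.9%. The nuclear genes of oxidative phosphorylation (23 tested, 0 called by limma, 2 at an unadjusted p under 0.05) had medians of 0.36, 0.23, -0.60 and 0.18, with the same library low.

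Among 10 tested G1 regulators, Cdkn2a rose and Cdkn2d fell. Cdkn2a, which encodes the tumour suppressors p16 and p19, was at 3.15, 1.40, 1.43 and 1.06 FPKM against 0.0272 to 0.264 (log2 1.23, limma adjusted p = 0.0449). Its call was lost without replicate 2 (limma adjusted p from 0.0220 to 0.0648 over the fits without 1 transplanted library). Cdkn2d, another inhibitor of CDK4 and CDK6, was at 35.8, 34.8, 57.7 and 41.1 FPKM against 102 to 110 (log2 -1.34, limma adjusted p = 0.0119). The groups did not overlap for either gene, and both calls were lost without 1 control (0.125 to 0.233). Ccnd3, the D cyclin of thymocyte expansion, was at 23.6, 23.5, 57.5 and 50.1 FPKM against 72.6 to 92.2 and was not called. Cdk6 was at 85.8 FPKM in replicate 2 and 5.18 to 11.3 in the others, against 5.15 to 6.37.

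Genes of the double-positive stage were mostly lower, and few passed the test. All 22 listed genes passed the filter, 1 rose and 2 fell, with a median of -0.82. At 14 of them the libraries did not overlap, as at 24.5% of all genes tested. Rag2, a subunit of the recombinase that assembles receptor genes, was at 2.80, 1.84, 10.01 and 13.2 FPKM in transplanted replicates 1 to 4 and at 59.4 to 63.0 in the controls (log2 -3.28, SE 0.566, limma adjusted p = 0.0229). Its call was lost without replicate 1 (limma adjusted p of 0.0506, the highest of the 4 fits without 1 transplanted library; the lowest was 0.00910) and without 1 control (0.157 to 0.168). Its partner Rag1 was at 228, 297, 767 and 330 FPKM against 1022 to 1088, below every control and not called (limma adjusted p = 0.0834). Dntt, the terminal transferase, was at 73.1, 229, 242 and 131 FPKM against 471 to 494.

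The other called members of that list were Plxnd1, described above, and Trib2. Trib2, a pseudokinase and Notch target, was at 96.6, 33.3, 60.5 and 65.7 FPKM against 16.2 to 16.5 (log2 1.81, limma adjusted p = 0.0255), and its call was lost without replicate 4 (0.0613) or 1 control (0.167 to 0.174). Without replicate 3, 14 of the 22 were called lower and 1 higher, where 12.9% of all genes were lower. List medians were -1.45, -0.9956, -0.22 and -0.62 in replicates 1 to 4, so replicate 3 was nearest to the controls. Of 20 early progenitor genes, 1 passed the filter and limma did not call it.

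Receptor signalling genes had medians below the controls in most libraries. The list of the pre-receptor and proximal kinases was at -0.73, -0.58, 0.02 and -0.37 in replicates 1 to 4, nearest to the controls in replicate 3. The list of receptor response was at -0.19, -1.23, -0.31 and -0.60, nearest in replicate 1. Of 17 pre-receptor and proximal signalling genes, all passed the filter and 1 fell: Cd247, the CD3 zeta chain, at 18.6, 20.6, 22.3 and 18.3 FPKM against 32.5 to 36.6 (log2 -0.77, limma adjusted p = 0.0164). Its 4 transplanted values lay close together. Cd3e was at 242 to 357 FPKM against 404 to 428 and Lck at 134 to 258 against 266 to 288, below every control and not called. Of 20 genes of receptor response and positive selection, 19 passed the filter and 1 fell: Cd6, a surface regulator of receptor signals, at 24.0, 19.5, 32.5 and 21.1 FPKM against 49.2 to 58.3 (log2 -1.10, limma adjusted p = 0.0232). Cd5, whose level tracks receptor signal strength, was at 66.7, 11.6, 92.3 and 49.6 FPKM against 156 to 174, and Cd69 at 4.21, 1.51, 17.7 and 9.01 against 24.7 to 29.3. Replicate 2 was the lowest for both. The call of Cd6 was lost without replicate 1 (0.0506) or 4 (0.0560), and both calls without 1 control (0.136 to 0.173). Without replicate 3, 7 of 17 and 8 of 18 members of these lists were called lower and 0 and 1 higher, where 12.9% and 15.8% of all genes were.

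Genes of mature T cells as a list were above the controls in replicate 1 and below them in replicate 2. Of 16 listed genes, 15 passed the filter and Itgb7 alone was called, with list medians of 1.29, -0.92, 0.32 and 0.70 in replicates 1 to 4. Klf2, a factor of quiescence and exit, was at 42.8 FPKM in replicate 1, at 0.994, 1.33 and 4.42 in the others and at 0.894 to 1.002 in the controls. S1pr1, the receptor for exit from the thymus, was at 17.7 FPKM in replicate 1, 0.152 in replicate 2 and 1.57 to 1.60 in the others, against 0.188 to 0.251. Gimap4 was at 17.6, 0.580, 2.49 and 7.43 FPKM against 1.77 to 2.17. Replicate 1 was above the controls for these 3, and replicate 2 was within or below their range. Other members did not split this way: Itgb7 was above every control in both, as was Il7r, also on this list, and Dgka, a diacylglycerol kinase, was below in both (147 and 107 FPKM against 294 to 322). Ccr9, which guides thymocytes to the cortex and gut, was at 43.1, 2.81, 82.7 and 64.7 FPKM against 92.6 to 97.3. Of 15 homing and integrin genes tested, Itgb7 rose and Plxnd1 fell.

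Of 10 gamma-delta genes in the table, 5 passed the filter, 1 rose and 0 fell, and the transplanted libraries differed widely. Summed FPKM over the 10 genes was 1008, 1103, 599 and 318 in replicates 1 to 4, against 414 to 459 in the controls. The sum in replicate 4 was thus below every control. Most of the sum in the controls came from list members other than those named in this paragraph. What these other members added was below the controls in replicates 1, 2 and 4 and above them in replicate 3. The rises named below therefore do not stand for the whole list. Without replicate 3, 1 of 4 members tested was called higher and 1 lower, where 15.8% and 12.9% of all genes were. Tcrg-C1, a constant segment of the gamma receptor chain, was at 162, 243, 29.0 and 14.4 FPKM against 0.534 to 2.20 (log2 4.82, SE 0.966, limma adjusted p = 0.0377). Tcrg-C2 was at 506, 422, 4.49 and 0.369 FPKM against 1.81 to 3.30. Replicates 1 and 2 were thus far above the controls for both segments, and replicate 4 was below them for Tcrg-C2. Tcrg-C4 was at 87.7, 173, 0.928 and 1.68 FPKM against 0.0780 to 0.937 and was not called. The segments of this locus are similar in sequence and uncertain one by one. The call of Tcrg-C1 was lost without replicate 1 (limma adjusted p from 0.0157 to 0.0799 over the 4 fits) or 1 control (0.180 to 0.215). Sox13, a factor of gamma-delta cells, was at 1.81, 2.57, 0.112 and 0.882 FPKM against 0.0235 to 0.174. On the list of innate-like genes, Gzma, granzyme A, was at 327, 788, 75.9 and 285 FPKM against 28.3 to 39.8. It was above every control and not called (limma adjusted p = 0.0558). On that same list Gzmb was at most 0.0436 FPKM and Gzmk at 0 in the 7 libraries. Other gamma-delta genes stayed low: Tcrg-C3 was at most 0.848 FPKM and Blk, a Src family kinase, at most 0.326 in any of the 7 libraries. Zbtb16, the factor PLZF of innate-like T cells, was at 2.99 FPKM in replicate 1 and at most 0.452 in the others. Of the beta chain variable segments, Trbv2 held 98.0% of the summed FPKM in replicate 1 and Trbv26 92.4% in replicate 2. In replicate 3 Trbv2 held 65.1% and Trbv1 33.7%, and in replicate 4 the leading segment held 28.3% of a sum of 26.9 FPKM. The leading segment held 16.5% to 17.0% in the controls and 55.5% to 78.2% in the untransplanted knockouts.

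Mitochondrially encoded genes gave more calls than any other list. Of 13 genes, all passed the filter, 6 rose and 0 fell, and 12 lay above every control in all 4 libraries, as did 11.2% of all genes tested. mt-Nd6 was at 629, 619, 768 and 761 FPKM against 242 to 275 (log2 1.42, limma adjusted p = 0.00907). mt-Nd1 was at 1891, 1926, 2426 and 2336 FPKM against 708 to 960 (log2 1.32, limma adjusted p = 0.0400). mt-Nd4l rose by 1.54, and mt-Nd5 rose to 774 to 1004 FPKM against 317 to 387. These 4 genes encode subunits of respiratory complex I, of which mt-Nd2, mt-Nd3 and mt-Nd4 were not called (limma adjusted p = 0.0541, 0.343 and 0.182). The other 2 calls were mt-Co2 of complex IV (log2 0.93, limma adjusted p = 0.0102) and mt-Atp8 of the ATP synthase (log2 1.16, limma adjusted p = 0.0216). The list median was above the controls in each library, at 0.93, 0.88, 1.35 and 1.10, and highest in replicate 3. The mt-Nd1 call was lost without replicate 1, 2 or 4 (limma adjusted p from 0.00766 to 0.103 over the fits without 1 transplanted library) and that of mt-Nd5 without replicate 4 (0.0501). Without 1 control all 6 were lost (0.0798 to 0.259).

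The cytokine list had 1 call and the list of glucose use had 2. Socs3, an inhibitor of cytokine signalling, was at 9.48, 14.8, 14.4 and 9.99 FPKM against 3.91 to 5.13 (log2 1.27, limma adjusted p = 0.0151, and 0.112 to 0.147 without 1 control), the 1 call among 15 genes tested. Il7r, the interleukin 7 receptor alpha chain that double-positive cells largely lack, was at 26.4, 117, 5.51 and 3.14 FPKM against 0.518 to 0.799, above every control and not called. Pdk2, a kinase that inhibits pyruvate dehydrogenase, was at 0.156, 0.555, 0.346 and 0.106 FPKM against 4.01 to 5.71 (log2 -2.19, limma adjusted p = 0.00142). It passed the filter through the controls alone, so it had no fit without a control. Pdk1 fell by 0.59 (limma adjusted p = 0.0480), a call lost without replicate 1, 2 or 4 (up to 0.0902) or 1 control (0.227 to 0.259), and 0.0130 without replicate 3. They were the 2 calls among 17 genes of glucose use. limma called 0 of 16 interferon-stimulated genes, 13 p53 targets, 10 BCL2 family genes, 12 immediate early and heat shock genes and 7 innate-like genes. At an unadjusted p under 0.05 there were 2, 6, 3, 2 and 3 of them, where 21.9% of all genes tested were.

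Leukaemia genes and foetal genes overlapped the lists above. Of 26 listed T cell leukaemia genes, 18 passed the filter, and Notch1, Notch3 and Cdkn2a rose. Tal1, Lmo2 and Tlx1, factors that drive T cell leukaemia when switched on, were at most 0.0177 FPKM in the 7 libraries. Fbxw7, whose product degrades Notch1 and Myc proteins, was at 2.48 to 4.25 against 3.67 to 4.50. Jak3 was at 10.2, 5.04, 10.1 and 3.63 FPKM against 1.67 to 2.28, above every control and not called. Of 10 foetal programme genes, 3 passed the filter and Igf2bp3 rose, while Lin28b, a regulator of the foetal programme, was at 0 FPKM in all 7.

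Few markers of other cells passed the filter, and calls fell in the B cell and dendritic cell lists. Of all genes tested, 2.44% were called higher and 2.49% lower. Of 15 B cell genes, 4 passed the filter and 2 fell. Cd79b, a signalling chain of the B cell receptor, was at 0.0558, 0.136, 0.449 and 1.16 FPKM against 5.13 to 6.61 (log2 -2.28, limma adjusted p = 0.00499). Ighm, the IgM heavy chain, was at 122, 121, 95.0 and 107 FPKM against 178 to 213 (log2 -0.81, limma adjusted p = 0.0345), a call lost without replicate 4 (0.0821). Without 1 control the calls of Cd79b, Ighm and H2-Ab1 were lost (0.0687 to 0.219). H2-Ab1, an MHC class II chain, rose from 0.745 to 0.895 FPKM to 1.99 to 3.19 (log2 0.95, limma adjusted p = 0.0198), the 1 call among 3 dendritic cell genes tested. Its partner Cd74 was at 0.358 to 1.93 FPKM against 1.18 to 1.56. In the macrophage, stromal and erythroid lists limma called 0 of 2, 3 and 3 genes tested, with 0, 1 and 2 at an unadjusted p under 0.05. The summed FPKM of the erythroid list was 32.2 to 73.0 against 14.3 to 31.9.

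Genes of chromosome 15 were higher as a group in every transplanted library. Over the 268 genes of that chromosome with a control mean of 5 FPKM or more, the median log2 ratio to the controls, minus the median over autosomal genes of the same library, was 0.54, 0.58, 0.52 and 0.56 in replicates 1 to 4 (mean 0.548 ± 0.0267 SD, n = 4). In the controls it was -0.02 to 0.02. Without the autosomal median taken off, it was 0.39 to 0.53. The untransplanted knockouts were at 0.57 to 0.70.

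Calls were frequent on the same chromosome. Of 261 autosomal genes called higher, 61 (23.4%) lie on chromosome 15, which holds 4.06% of the autosomal genes tested, and 1 of 270 called lower does. On chromosome 15, 13.96% of the genes tested rose, against 2.44% of all genes. Without that chromosome 212 genes remained higher and 278 lower. Besides the 6 genes named among the largest rises, calls there included Rpl30, a ribosomal protein, Eif3e, a translation initiation subunit, and Mfng, a Fringe glycosyltransferase that modifies Notch. These 3 were chosen for their known roles after the calls were seen. Mfng was at 24.8, 19.5, 20.7 and 20.1 FPKM in transplanted replicates 1 to 4 and at 8.06 to 9.10 in the controls (log2 1.19, limma adjusted p = 0.00341), and its 4 libraries were close together. Without 1 control all 3 calls were lost (0.0585 to 0.251), and those of Rpl30 and Eif3e were also lost without transplanted replicate 1, 2 or 4 (up to 0.0898). Of the genes called lower, 50 of 270 (18.5%) lie on chromosome 14, with 4.59% of the genes tested, and most of these are variable and joining segments of the receptor alpha locus.

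**Figure D5:**
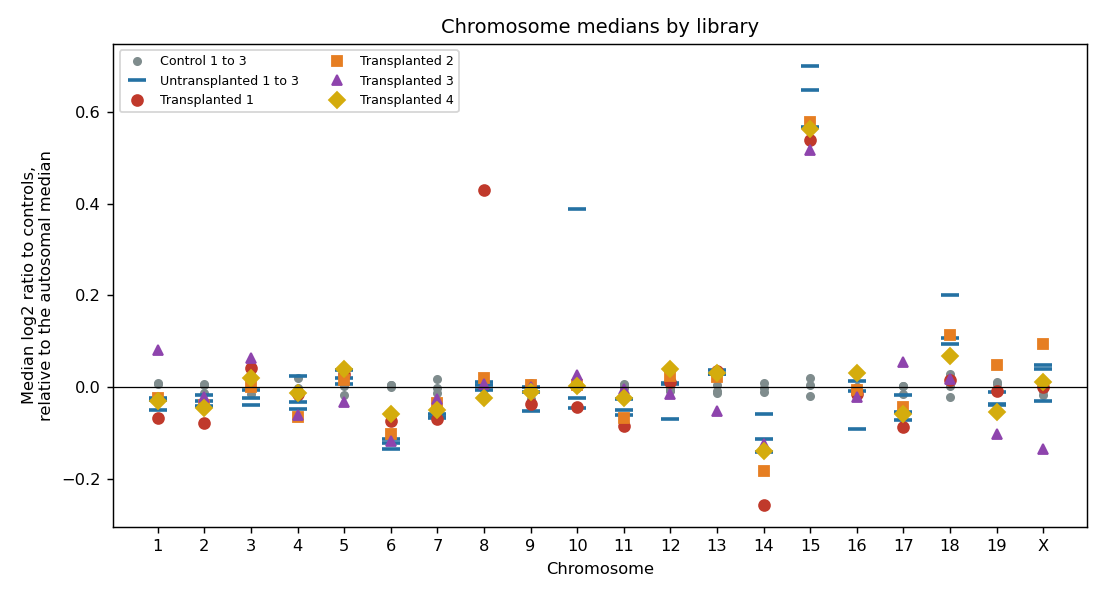
Median log2 ratio to the controls by chromosome, relative to the library's autosomal median, over genes with a control mean of 5 FPKM or more. Grey circles are controls, each against the other 2, coloured symbols are transplanted libraries and blue dashes are untransplanted knockouts. Chromosome 15 is at 0.52 to 0.58 in the 4 transplanted libraries, and chromosome 8 is at 0.43 in replicate 1 alone.

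A shift of a whole chromosome in 1 library was also present. Chromosome 8 was at 0.43 in transplanted replicate 1 over 357 genes, and at -0.02 to 0.02 in the other 3 transplanted libraries. Of the other autosomes, the highest median was 0.11 in replicate 2, 0.08 in replicate 3 and 0.07 in replicate 4. The lowest was that of chromosome 14 in each transplanted library, at -0.26, -0.18, -0.12 and -0.14 in replicates 1 to 4. Segments of the receptor alpha locus were not left out of this median. Summed FPKM of the alpha joining segments was 338, 434, 1545 and 588 in replicates 1 to 4, against 1618 to 2273 in the controls. Their part in the median of chromosome 14 was not tested. In the untransplanted knockouts chromosome 14 was at -0.11, -0.06 and -0.14. The untransplanted replicate 3 had chromosome 10 at 0.39. Of the 261 higher genes, 13 (4.98%) lie on chromosome 8, with 5.60% of the genes tested.

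Sex and the group were not balanced, since all controls were female. With a term for the inferred sex, limma called 712 genes higher and 670 lower, and 492 of the 552 genes called without it were called again. Transplanted replicates 1 and 2 alone against the controls, chosen after the data were seen, gave 1723 higher and 1683 lower of 10579 genes. All 465 of the 552 genes that could be tested in that fit were called again, with 0 changes of sign, on libraries that the main fit also used. That fit also left out replicate 3, whose removal alone gave 1727 higher and 1408 lower of 10942 genes, so its counts do not single out sex. Genes under 1 FPKM in every control could not pass its filter of 3 libraries.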

How the data were processed

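Sorted cells gave RNA by RNeasy columns, and NuGEN Ovation Ultralow reagents gave the libraries, per the labels' protocols. For the 10 libraries of the 8-week table, values in FPKM were deposited per gene by the authors. Trimmomatic 0.33, STAR, HTSeq 0.6.1, DESeq2 and the build mm10 are named in the submitters' processing notes without role or order. Annotation, gene lengths and strand are not given in the sources used here, so overlapping and antisense genes cannot be told apart, and near-identical genes are uncertain. Of 43430 gene identifiers, 42546 matched a GENCODE symbol of mm10. There were 0 unused columns of sample values and 0 identical pairs of libraries.

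Library depth was worked out from the steps between low values. In the 10 libraries 50.8% to 58.8% of low values were whole reads within 0.03, too few to recover counts, so no count model was used. FPKM summed to 198963 to 250725 per library. log2(FPKM + 1) was tested with limma 3.58.1 (trend, no covariates) in R 4.3.3 over genes at 1 FPKM or more in 3 libraries. On simulated data of 11193 genes, 49 of 100 genes changed by 1 and 88 of 100 changed by 2 were called, with 5 false calls. The simulation gave both groups the same spread at each gene and changed only genes above the median expression. In the data the median transplanted SD was 3.71 times that of the controls, so these counts do not carry over to the real comparison.

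The members, gene lists and rules were chosen with earlier results of these data known. Named genes were Tcf3, the 12 largest called rises and falls without overlap (no predicted genes, small RNAs or receptor segments), up to 4 called members of each list, the 12 protein-coding genes of largest transplanted SD with a control SD under 0.5, and the smallest p between transplanted and untransplanted knockouts. Alternatives were a pseudocount of 0.1, other filters and scalings, robust variances, array weights, a replicate block, all 10 libraries, a sex term and leaving out each library.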

Additional observations from a re-analysis of the deposited data

Results flagged for a closer look

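Among 65 named genes and 27 lists, 7 genes had 1 of the 4 transplanted libraries far from the others, by the gap to the nearest library as a share of the whole range (above Dixon's 95% critical value), and 0 lists did. Chance marks about 1 in 20 such groups. Tcf3 was highest in replicate 3, at 2.32 FPKM (0.890 of the range). Gabarapl1 was highest there too, at 0.556 FPKM (0.908), as were Edaradd, a signalling adaptor, at 22.7 FPKM (0.920) and Mex3a, an RNA-binding protein, at 30.9 FPKM (0.888). Replicate 2 was alone high for Aldh1b1 at 90.8 FPKM (0.873), Laptm4b at 74.6 FPKM (0.913) and Bex1 at 35.2 FPKM (0.972). These last 3 were chosen for their spread.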

How the results depend on the processing

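The numbers of genes called depended on the fit. Over all fits run, 0 of the genes called both there and in the main fit changed sign. The fits share libraries, so a change of sign was hardly possible and this count says little about direction. Against 273 higher and 279 lower, no filter gave 162 and 345, a mean of 5 FPKM or more 125 and 112, array weights 1462 and 1344, the fit of 10 libraries 534 and 535, and the sex term 712 and 670. Leaving out 1 library gave 9 to 1727 higher and 10 to 1408 lower. Replicate 3 left out on the same 11193 genes gave 1726 and 1396, and replicates 1 and 2 alone 1723 and 1683, both chosen after the data were seen. Fits without 1 control tested 448 of the 552 called genes and called 19 to 25 of them again. Fits without 1 transplanted library tested 537 to 542 of them and called 357 to 542 again. The causes were not tested. Transplanted and untransplanted knockouts differed at 0 genes, 3 lower with no filter, and 0 to 2 higher and 0 to 3 lower without 1 library.

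With a replicate block the counts were 23 higher and 43 lower. Whether the numbers pair the libraries was not settled. Same-numbered deviations of transplanted and control libraries correlated at 0.0664, -0.0767 and -0.0492, and different-numbered ones at -0.0897 to 0.11. With so few libraries these values can neither show nor exclude a pairing. Replicate 4 has no control of its number, and 16 of 43 named calls held.

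The median transplanted SD of 0.355 was 0.231 to 0.378 without 1 of its libraries, lowest without replicate 3. The control median of 0.0957 was 0.115 with a pseudocount of 0.1, 0.0837 at a mean of 5 FPKM and 0.0767 to 0.0807 without 1 control. Genes with a transplanted SD of 1 or more, 742 in the report, numbered 1700 with a pseudocount of 0.1 and 414 at a mean of 5 FPKM. The chromosome 15 mean was 0.488 over genes at 1 FPKM or more, and 0.533 to 0.576 without 1 library. FPKM gives no counting error, so differences of low genes carry an unknown depth limit.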
